A study of Mus musculus with 6 samples.

Results

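Mitochondrial ribosomal protein genes were followed in RNA of whole mouse kidney taken after ischemia and reperfusion. They were chosen by symbol, as every gene of the deposited table of all libraries whose name begins with Mrpl or Mrps and a digit. This gave 77 of the 13026 genes in the table, 48 with a large subunit symbol (Mrpl) and 29 with a small subunit symbol (Mrps). All 77 also passed the filter on low values, a mean of at least 0.5 FPKM, which 12836 genes passed. FPKM, made by the authors, is a read density scaled for transcript length and for the library total, so levels can be set side by side between genes. There were 3 libraries of LIGHT knockout kidneys (LIGHT-/-) and 3 of wild type kidneys (LIGHT+/+). LIGHT, the product of Tnfsf14, is a TNF-family cytokine made mainly by immune cells. Mice of both genotypes were adult males on a C57BL/6 J background, and all had 32 min of ischemia in both kidneys and 24 h of reperfusion. Kidneys without surgery were not analysed here, so the comparison is of genotypes after injury. The sources used here do not say how the LIGHT allele was made. They also do not say that the 3 libraries of a genotype came from separate mice, so p-values take in just the spread among the samples sequenced.

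Mitochondria carry their own ribosome, which translates the few mRNAs of the mitochondrial genome, all of them for subunits of the respiratory chain and of ATP synthase. Its rRNAs are made inside the organelle, whereas its proteins are encoded in the nucleus, translated in the cytosol and imported. Some of these proteins descend from bacterial ribosomal proteins and others were added during the evolution of mitochondria. The small subunit reads the mRNA, and the large subunit forms the peptide bond and is anchored to the inner membrane. The kidney, and the proximal tubule above all, is rich in mitochondria, and the tubule's oxidative metabolism is a known target of ischemic injury.

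The libraries were not alike. FPKM summed to 299667 to 318493 per library, and the number of reads per library cannot be read from FPKM. One library, knockout library 3, lay apart, with a Pearson correlation across genes of 0.934 to 0.956 with the others, against 0.976 to 0.989 among the other 5. No check of the genotype labels on Tnfsf14 was made, as that gene was not analysed here. Kidney markers were present in every library: the 10 proximal tubule markers summed to 1212, 1304 and 2123 FPKM in knockout libraries and to 952, 998 and 805 FPKM in wild type libraries. The 8 markers of tubular injury summed to 6021, 4772 and 1670 FPKM in knockout libraries, against 5782 to 6430.4 FPKM in wild type libraries. In whole tissue, fewer cells of a type and less RNA per cell cannot be told apart.

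The mitoribosomal mRNAs covered a 27.4-fold range of mean level, and every value was several times the 0.5 FPKM used as a filter. The lowest single value was 3.34 FPKM, for Mrpl15, and the highest was 114 FPKM, for Mrpl42. Mrpl42, which encodes a protein found in mitochondrial but not bacterial ribosomes, was the most abundant, at 109, 107 and 114 FPKM in knockout libraries and 110, 108 and 113 FPKM in wild type libraries. Mrpl12 came next, the gene for the stalk protein that receives the translation factors, at 93.2, 92.4 and 89.9 FPKM in knockout libraries and 92.5, 102 and 83.0 FPKM in wild type libraries. The wild type values of Mrpl12 lay on both sides of the knockout values, and for Mrpl42 the groups also overlapped. Mrps6, Mrps16 and Mrps21, all homologues of bacterial small subunit proteins, completed the 5 of highest level. These 5 held 20.9% of the summed FPKM of the 77 genes. The 5 of lowest level were Mrpl15, Mrps10, Mrpl48, Mrps17 and Mrpl23, with means over the 6 libraries of 4.02 to 4.79 FPKM. Large subunit genes held 67.7% of the sum, and the median large subunit gene was at 26.6 FPKM against 15.8 FPKM for the median small subunit gene.

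**Figure D1:**
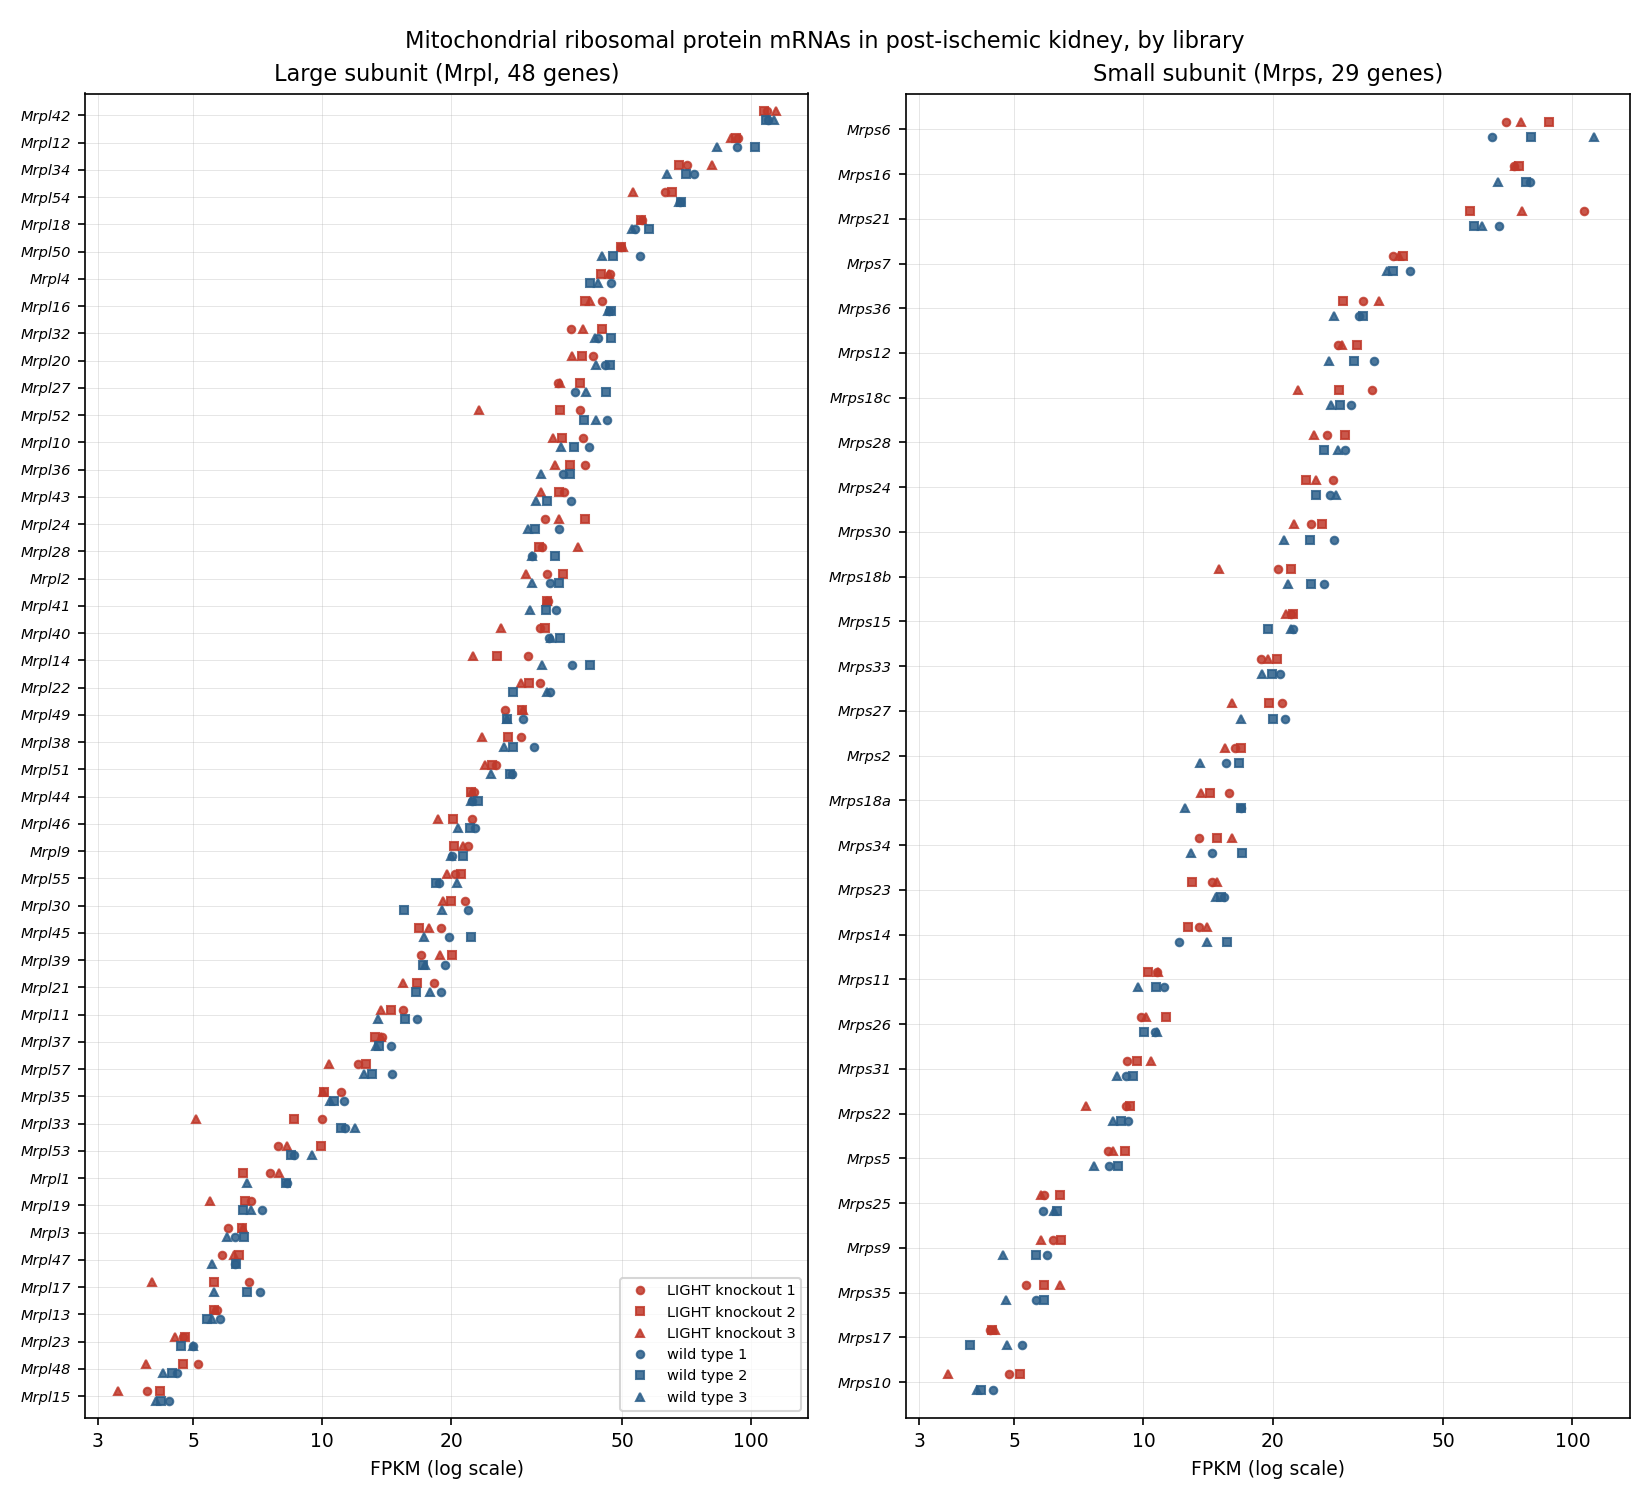
FPKM of each mitoribosomal gene in each library, on a log axis, large subunit at left and small subunit at right, ordered by mean level. Red marks are LIGHT knockout libraries and blue marks wild type libraries, with circle, square and triangle for replicates 1, 2 and 3. In most rows the colours mix; in the rows of Mrpl14, Mrpl33 and Mrpl52 all 3 red marks lie left of the blue ones.

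Their genes are laid out in a particular way. With GENCODE M21 positions (GRCm38, the assembly of mm10), other protein-coding genes starting on the opposite strand within 1000 bases of each start were sought. A partner of this kind was found for 33 of the 77 (42.9%), against 15.6% of the 12748 genes kept that are annotated as protein-coding. Noncoding genes were not counted. The partners included other mitochondrial genes. Mrpl46 and Mrps11, of different subunits, start 412 bases apart on chromosome 7, Mrps12 starts 172 bases from Sars2, which encodes the mitochondrial seryl-tRNA synthetase, and Mrpl36 starts 29 bases from Ndufs6, a complex I subunit. Mrpl43 starts 779 bases from Peo1 (now Twnk, the mitochondrial DNA helicase), and Mrpl47 starts 615 bases from Ndufb5, another complex I subunit. Levels in a pair could differ widely. Mrpl36 averaged 37.9 ± 3.01 FPKM in knockout and 35.5 ± 2.87 FPKM in wild type (SD, n = 3 each), and Ndufs6 averaged 130.5 ± 7.63 FPKM in knockout and 128 ± 11.2 FPKM in wild type (SD, n = 3 each). Sars2 was at 2.70 to 4.25 FPKM over all libraries while Mrps12 was at 27.0 to 34.5 FPKM.

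Promoters were read from RefSeq on GRCm38.p6, where 68 of the 77 genes had an entry of 250 bases before to 50 bases after the start. Motifs known from promoters of mitochondrial genes were searched on both strands. A gene was counted if any of its promoter entries held the motif. The background was the 9905 genes with an entry among all genes, before the filter on low values. The motif of NRF1, a factor known for driving nuclear genes of the respiratory chain, is GCGCA, any base, then GCGC. It was in 13 of 68 (19.1%), against 11.1% of the 9905 genes. The ETS motif bound by GABP (CCGGAAG) was in 25 (36.8%), against 19.3%, and the YY1 motif (AAGATGGC) was in 12 (17.6%), against 5.08%. The E-box (CACGTG) was in 5 (7.35%), against 11.6%, the TATA motif (TATAAA) was in 5 (7.35%), against 8.98%, and the motif of the oestrogen-related receptors (TCAAGGTCA) was in 0, against 0.343%. The NRF1 motif was in 10 of 42 large subunit genes and 3 of 26 small subunit genes. The YY1 motif was in 6 of 42 large subunit genes and 6 of 26 small subunit genes. These are matches of letters and not sites of binding, and no match says nothing about a factor.

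The stretches from 130 bases before the start to 6 bases from the start on are printed for the genes of highest level (Mrpl42 and Mrpl12), for another gene of high level (Mrpl34), for Mrpl33 and Mrpl52, whose groups did not overlap, and for Mrpl17, of low level. Mrpl34 and Mrpl17 were picked with their values in view. Sequences run 5′ to 3′ on the gene's strand, and capitals mark the matches to the motifs above.
Mrpl42, chr10:95501944-95502079, minus strand: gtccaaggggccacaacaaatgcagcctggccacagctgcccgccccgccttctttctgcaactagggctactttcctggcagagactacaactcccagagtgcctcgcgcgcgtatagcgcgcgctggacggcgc
Mrpl12, chr11:120484507-120484642, plus strand: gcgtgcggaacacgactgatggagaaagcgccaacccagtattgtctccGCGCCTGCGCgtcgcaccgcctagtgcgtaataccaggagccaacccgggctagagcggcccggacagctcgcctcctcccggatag
Mrpl34, chr8:71464796-71464931, plus strand: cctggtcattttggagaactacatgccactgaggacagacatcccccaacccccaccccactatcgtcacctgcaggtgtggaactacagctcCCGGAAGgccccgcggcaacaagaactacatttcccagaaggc
Mrpl33, chr5:31613821-31613956, plus strand: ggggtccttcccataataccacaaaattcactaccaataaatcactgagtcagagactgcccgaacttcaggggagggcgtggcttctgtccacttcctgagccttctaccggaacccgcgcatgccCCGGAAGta
Mrpl52, chr14:54426779-54426914, plus strand: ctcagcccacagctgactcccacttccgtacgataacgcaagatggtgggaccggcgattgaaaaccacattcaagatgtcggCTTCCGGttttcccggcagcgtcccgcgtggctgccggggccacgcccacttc
Mrpl17, chr7:105811082-105811217, minus strand: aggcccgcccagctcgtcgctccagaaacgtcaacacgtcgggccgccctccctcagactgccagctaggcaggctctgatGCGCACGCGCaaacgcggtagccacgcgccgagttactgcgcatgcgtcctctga
Mrpl12 and Mrpl17 both hold a NRF1 match; Mrpl12 was at 83.0 to 102 FPKM and Mrpl17 at 4.01 to 7.18 FPKM over the 6 libraries. Mrpl34, Mrpl33 and Mrpl52 each hold an ETS match, and Mrpl42 holds none of the 6 motifs in this stretch. Left out by the choice of stretch, whole or in part, were a YY1 match in Mrpl42, an ETS match in Mrpl17 and another ETS match in Mrpl52.

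Across the 6 libraries the mitoribosomal genes were steadier than most genes. The SD of log2(FPKM + 1) over all libraries had a median of 0.11 for them, against 0.18 over the 12836 genes, and it was below that all-gene median in 69 of 77. Genes of other kinds within the same range of mean level had a median SD of 0.17, at a lower median level (11.9 against 21.1 FPKM). Low spread was not particular to the family. The median SD was 0.084 for 20 other nuclear genes for mitochondrial proteins and 0.10 for mitochondrially encoded mRNAs. It was 0.12 for nuclear complex I genes and 0.20 for cytosolic ribosomal protein genes. Mrpl44, the gene for a large subunit protein with a ribonuclease III-like fold, varied least. It stood at 22.6, 22.3 and 22.3 FPKM in knockout libraries and at 22.4, 23.1 and 22.3 FPKM in wild type libraries, with overlap throughout. Mrpl44 starts 125 bases from Wdfy1 on the opposite strand, and the genes share 126 exonic bases. Wdfy1, one of the few genes called, was at 13.0, 14.8 and 13.9 FPKM in knockout libraries and at 4.10, 4.00 and 4.40 FPKM in wild type libraries (limma adjusted p = 0.0110). That call was lost without knockout library 2 (limma adjusted p = 0.0619), without wild type library 1 (0.0523) and without wild type library 3 (0.117), and in each of these fits limma called 0 of all genes. On the log2(FPKM + 1) scale the log2 fold change was 1.53 for Wdfy1 and -0.012 ± 0.076 for Mrpl44 (SE, limma adjusted p = 0.966). Mrpl13 and Mrpl42 were the next steadiest, with SDs of 0.029 and 0.035.

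No mitoribosomal gene was called between LIGHT knockout and wild type. Across all genes, 15 of 12836 (0.117%) passed a limma adjusted p under 0.05, and 0 of 77 mitoribosomal genes did so. At an unadjusted p under 0.05 there were 2 of 77 (2.60%), Mrpl14 and Mrpl33, against 8.08% of all genes. Log2 fold changes, knockout over wild type on the log2(FPKM + 1) scale, lay within 0.25 of 0 for 72 of 77, against 9747 of 12836 genes. By sign, 30 were higher and 47 lower in knockout libraries (median -0.020), against a median of -0.0097 over all genes. That split depended on the scaling, since 39 of 77 were lower, with a median of -0.00086, when libraries were scaled to the same sum without mitochondrially encoded genes. The median over all genes moved with that scaling too, to 0.0072. The split also depended on single libraries. Without knockout library 3, 40 were lower (median -0.0040, against -0.012 over all genes). Without wild type library 1, 37 were lower (median 0.00096, against -0.023 over all genes).

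The groups overlapped for most of the genes. In 7 of 77 (9.09%) every knockout value was below every wild type value, against 8.8% of all genes, and in 0 of 77 every knockout value was above, against 7.76%. Without knockout library 3 the shares were 8 of 77 (10.4%), against 12.7%, for lower and 4 of 77 (5.19%), against 11.2%, for higher. The 7 were Mrpl14, Mrpl33, Mrpl52, Mrpl20, Mrpl54, Mrpl40 and Mrpl16. All of them carry large subunit symbols, 7 of 48 (14.6%) against 0 of 29 for small subunit symbols, a difference that was not tested. With knockout library 3 left out, the lower shares were 7 of 48 (14.6%) and 1 of 29 (3.45%), against 12.7% of all genes. The higher shares were then 2 of 48 (4.17%) and 2 of 29 (6.90%), against 11.2% of all genes. Mrpl20, homologous to an early binder of bacterial large subunit rRNA, was at 42.7, 40.4 and 38.3 FPKM in knockout libraries and at 45.7, 47.0 and 43.4 FPKM in wild type libraries. The highest knockout value was just below the lowest wild type value. Its log2 fold change was -0.16 ± 0.086 (SE), with a limma adjusted p of 0.610, and -0.12 without knockout library 3.

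**Figure D2:**
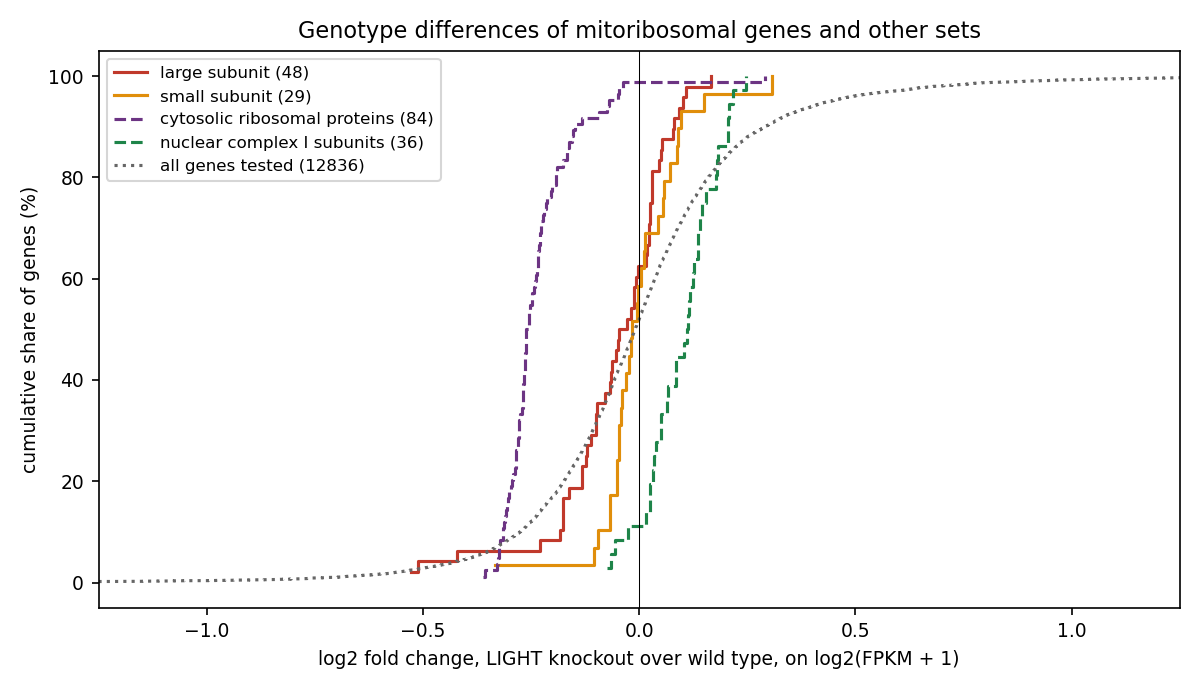
Cumulative share of genes (%) by log2 fold change, LIGHT knockout over wild type, on the log2(FPKM + 1) scale, with the vertical line at no difference. Large and small subunit genes (solid red and orange) cross 50% close to 0 and more steeply than all 12836 genes tested (dotted), cytosolic ribosomal protein genes (dashed purple) lie to the left with a median of -0.26, and nuclear complex I genes (dashed green) to the right with a median of 0.11.

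The large and small subunits were compared in several ways, none of which was tested because the members are not replicates. Of the large subunit genes, 18 were higher and 30 lower in the knockout, median log2 fold change -0.038, and of the small subunit genes 12 were higher and 17 lower, median -0.018. Without knockout library 3 the medians were -0.018 and 0.0080. Summed large subunit FPKM was 1401, 1384 and 1327 in the knockout libraries and 1463, 1440 and 1362 in the wild type libraries. Summed small subunit FPKM was 691, 664 and 644 in the knockout libraries and 676, 663 and 655 in the wild type libraries. Both sums overlapped between the genotypes. The large sum over the small sum was 2.03, 2.09 and 2.06 in the knockout libraries, mean 2.06 ± 0.029 (SD, n = 3), and 2.16, 2.17 and 2.08 in the wild type libraries, mean 2.14 ± 0.052 (SD, n = 3). Knockout library 2, at 2.085, was above wild type library 3, at 2.079, so these ratios overlapped as well. The difference of the means, -0.082, became -0.19 for the 42 members without exonic overlap and with under 20% of their 31-base words in other genes. Among those the ratio was 2.05, 2.26 and 2.15 in the knockout libraries and 2.29, 2.33 and 2.40 in the wild type libraries, without overlap. Their small subunit sum was 383, 343 and 349 FPKM in knockout libraries and 362, 345 and 323 FPKM in wild type libraries. It includes Mrps21, at 106, 57.8 and 76.4 FPKM in knockout libraries and 67.5, 59.0 and 61.7 FPKM in wild type libraries. Of the 31-base words of Mrps21, 14.5% occur in other genes. The separation may rest on Mrps21, and the ratio was not computed without that gene. The ratio of medians, large over small, was 1.60, 1.49 and 1.47 in the knockout libraries and 1.69, 1.60 and 1.73 in the wild type libraries; the highest knockout value, 1.596, was just below the lowest wild type value, 1.603.

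Symbols do not follow subunits exactly. The proteins of Mrps18a and Mrps30 are known from ribosome structures as parts of the large subunit, and the protein of Mrps36 as a part of the 2-oxoglutarate dehydrogenase complex, an enzyme of the citric acid cycle. With 50 large and 26 small subunit genes assigned in this way, the ratio of sums was 2.37 ± 0.034 in knockout and 2.46 ± 0.095 in wild type (SD, n = 3 each), and the ratio of medians was 1.63, 1.59 and 1.47 in the knockout libraries and 1.79, 1.53 and 1.63 in the wild type libraries. The gap in the ratio of medians seen with symbols was therefore absent under this assignment. Mrps36 itself was at 32.5, 29.2 and 35.3 FPKM in knockout libraries and 31.8, 32.5 and 27.9 FPKM in wild type libraries, overlapping. Mrps30 was at 24.6, 26.1 and 22.4 FPKM in knockout libraries and 27.8, 24.4 and 21.3 FPKM in wild type libraries, also overlapping. By ancestry, with Mrps18a and Mrps18b counted as homologues of bacterial S18 and Mrps36 left out, the 48 genes with a bacterial counterpart had 20 higher and 28 lower (median -0.037), and the 28 without one had 9 higher and 19 lower (median -0.019). That grouping was chosen after the values were seen; with those 3 genes counted as mitochondrial additions the medians were -0.024 and -0.020.

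Mrpl14 had the smallest unadjusted p of the family. It encodes the homologue of bacterial L14, which lies at the interface between the subunits and is bound by the assembly factor MALSU1. The gene is on chromosome 17, 45686322 to 45698495, plus strand (ENSMUSG00000023939.7). It was at 30.2, 25.5 and 22.5 FPKM in knockout libraries and at 38.1, 42.0 and 32.5 FPKM in wild type libraries. Every knockout library was below every wild type library. The log2 fold change was -0.51 ± 0.14 (SE), and the limma adjusted p was 0.592. Tmem63b, a gene for an ion channel of the membrane, starts 583 bases from Mrpl14 on the opposite strand and shares 106 exonic bases with it. Tmem63b was at 18.4, 18.3 and 13.3 FPKM in knockout libraries and 21.5, 23.4 and 22.3 FPKM in wild type libraries, also with no overlap and with a log2 fold change of -0.42 ± 0.14 (SE, limma adjusted p = 0.592). The sources used here do not say whether counting used the strand, so reads of the shared stretch cannot be assigned to either gene.

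Mrpl14 lies 11.5 Mb from Tnfsf14 on the same chromosome. The 8 mitoribosomal genes of chromosome 17 had 4 higher and 4 lower values in knockout libraries (median log2 fold change -0.0034). Mrps10, Mrpl2 and Mrps18a lay closer to Tnfsf14, at 9.81, 10.5 and 11.1 Mb. Their log2 fold changes were 0.056, -0.012 and -0.069, and their groups overlapped.

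Much of the difference in Mrpl33 and Mrpl52 came from knockout library 3. Mrpl33, homologous to a small protein of the bacterial large subunit (chromosome 5, ENSMUSG00000106918.3), was at 9.97, 8.59 and 5.09 FPKM in knockout libraries and at 11.3, 11.1 and 11.9 FPKM in wild type libraries. Its groups did not overlap, and library 3 was far below the other knockout libraries. The log2 fold change was -0.53 ± 0.21 (SE, limma adjusted p = 0.592), and -0.28 without that library. Mrpl52, a large subunit protein without a bacterial counterpart (chromosome 14, ENSMUSG00000010406.11), was at 39.9, 35.9 and 23.2 FPKM in knockout libraries and at 46.2, 40.9 and 43.5 FPKM in wild type libraries. The pattern was that of Mrpl33, and the log2 fold change was -0.42 ± 0.20 (SE, limma adjusted p = 0.596), or -0.19 without library 3. Mrpl17, homologous to bacterial L17 and picked after its values were seen, was at 6.76, 5.58 and 4.01 FPKM in knockout libraries and 7.18, 6.66 and 5.59 FPKM in wild type libraries, with overlap.

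Knockout library 3 was the lowest of the 6 libraries for 26 of 77 mitoribosomal genes (33.8%), against 30.3% of all genes, a share near that background. It was the highest for 6 (7.79%), against 29.8% of all genes. Wild type library 3 was the lowest for 25 (32.5%), against 15.2%, and wild type library 1 was the highest for 32 (41.6%), against 11.5%. Across the 77 genes, the correlation of log2(FPKM + 1) between libraries was 0.975 to 0.986 for pairs with knockout library 3 and 0.988 to 0.993 for the other pairs; genes are not independent replicates, and the libraries share gene length and annotation. The summed FPKM of the family was 0.658 to 0.682% of all FPKM in knockout libraries and 0.653 to 0.672% in the wild type libraries.

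**Figure D3:**
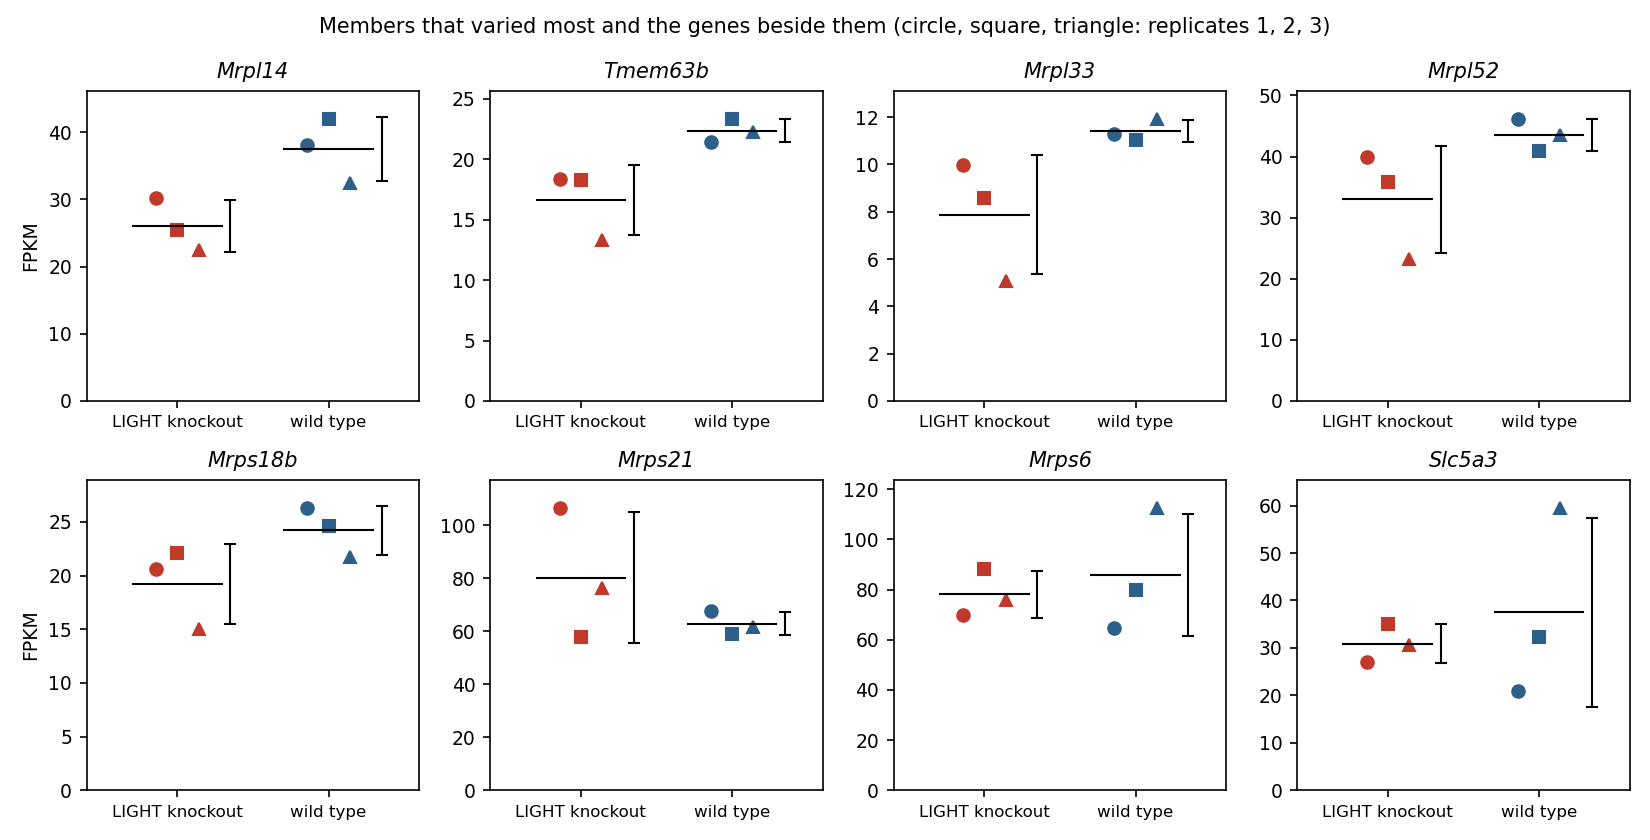
FPKM by library for the mitoribosomal genes that varied most and for 2 genes that overlap them, Tmem63b and Slc5a3; LIGHT knockout is left (red) and wild type right (blue), marks are replicates 1 (circle), 2 (square) and 3 (triangle), lines are means and bars ± 1 SD (n = 3). Knockout replicate 3 is the lowest mark for Mrpl14, Tmem63b, Mrpl33, Mrpl52 and Mrps18b, and Mrps6 and Slc5a3 rank the 6 libraries alike.

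Lower values were most frequent among short transcripts. The 26 mitoribosomal genes with the shortest transcripts, 405 to 803 bases, had 19 lower in the knockout and a median log2 fold change of -0.052 (-0.025 without knockout library 3). The 25 of middle length had 13 lower (median -0.0074), and the 26 longest, up to 6073 bases, had 15 lower (median -0.0089). Mrpl14, Mrpl33, Mrpl52 and Mrps18b are all among the 26 shortest. This is a description with no test.

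The highest positive value belonged to Mrps21, for a homologue of a bacterial small subunit protein that binds late in assembly, and it rested mostly on 1 library. Mrps21 was at 106, 57.8 and 76.4 FPKM in knockout libraries and at 67.5, 59.0 and 61.7 FPKM in wild type libraries. The groups overlapped, since knockout library 2 was the lowest of all. The log2 fold change was 0.31 ± 0.21 (SE, limma adjusted p = 0.666), and 0.084 without knockout library 1. The other genes with the smallest p among those with positive values were Mrpl24, Mrps9, Mrps31, Mrpl36, Mrpl28, Mrpl55, Mrps35, Mrps2 and Mrpl30. Their log2 fold changes were 0.077 to 0.17, and their groups overlapped. Mrpl24, a homologue of an assembly-initiating protein of the bacterial large subunit, was at 33.1, 40.9 and 35.6 FPKM in knockout libraries and 35.7, 31.4 and 30.2 FPKM in wild type libraries. It shares 594 exonic bases with Rrnad1 on the opposite strand, which was at 1.19 to 1.94 FPKM over all libraries. Mrps9 was at 6.14, 6.43 and 5.76 FPKM in knockout libraries and 5.96, 5.61 and 4.71 FPKM in wild type libraries. In both, only wild type library 1 reached the knockout range.

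Mrps6 had the widest spread within wild type. It was at 70.0, 88.2 and 76.0 FPKM in knockout libraries and at 64.9, 80.0 and 113 FPKM in wild type libraries. Its log2 fold change of -0.10 ± 0.21 (SE, limma adjusted p = 0.874) became 0.11 without wild type library 3. The gene shares 159 exonic bases on the same strand with Slc5a3, which encodes a myo-inositol transporter. Slc5a3, chosen after its values were seen, was at 27.1, 35.1 and 30.5 FPKM in knockout libraries and at 20.8, 32.2 and 59.5 FPKM in wild type libraries. Both genes ranked the 6 libraries in the same order. How reads of the shared bases were divided is not stated in the sources used here, so the level of Mrps6 is uncertain.

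The family has 3 genes for homologues of bacterial S18, whose proteins sit at different places in the ribosome. Mrps18b (chromosome 17, ENSMUSG00000024436.16) was at 20.6, 22.1 and 15.0 FPKM in knockout libraries and at 26.3, 24.6 and 21.8 FPKM in wild type libraries. Knockout library 2 was just above wild type library 3, so the groups overlapped. The log2 fold change was -0.33 ± 0.16 (SE, limma adjusted p = 0.598), and -0.17 without knockout library 3. Mrps18b shares 638 exonic bases with Gm16279, an antisense gene on the opposite strand, so the level of Mrps18b is uncertain. Mrps18a was at 15.8, 14.3 and 13.6 FPKM in knockout libraries and 16.9, 16.9 and 12.5 FPKM in wild type libraries (log2 fold change -0.069 ± 0.14, SE). Mrps18c was at 34.0, 28.6 and 22.9 FPKM in knockout libraries and 30.4, 28.7 and 27.4 FPKM in wild type libraries (log2 fold change -0.031 ± 0.15, SE). In both, values of 1 genotype lay on either side of the other. Of the 31-base words of Mrps18c, 32.8% also occur in transcripts of other genes, so its level is uncertain.

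Other genes with negative values were close to the group spread. Mrpl54 was at 63.0, 65.4 and 53.0 FPKM in knockout libraries and at 68.4, 68.5 and 67.8 FPKM in wild type libraries, without overlap and with a log2 fold change of -0.18 ± 0.10 (SE, limma adjusted p = 0.627). Mrpl40 was at 32.2, 33.0 and 26.1 FPKM in knockout libraries and at 33.8, 35.8 and 34.1 FPKM in wild type libraries, with a log2 fold change of -0.18 ± 0.11. Mrpl16, homologous to a protein beside the bacterial peptidyl transferase centre, was at 44.9, 40.9 and 42.0 FPKM in knockout libraries and at 46.6, 47.2 and 46.4 FPKM in wild type libraries, with a log2 fold change of -0.13 ± 0.081. In these genes the wild type libraries lay close together, and the knockout libraries lay below them and further apart. Mrpl27 and Mrpl57 had log2 fold changes of -0.18 each and overlapping groups. Without knockout library 3 the log2 fold changes were -0.086 for Mrpl54, -0.081 for Mrpl40, -0.12 for Mrpl16, -0.15 for Mrpl27 and -0.099 for Mrpl57.

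Genes that work with the mitoribosome were also without a call by limma, and in 4 lists of them, of proteins with other symbols, assembly factors, translation factors, and transcription and DNA upkeep, Tsfm alone had an unadjusted p under 0.05. Of 6 mitoribosomal proteins with other symbols, such as Dap3 (a small subunit GTP-binding protein) and Chchd1, 2 were higher and 4 lower (median -0.041). Ict1, now Mrpl58, the peptidyl-tRNA hydrolase built into the large subunit, was among them, at 5.96, 6.37 and 7.19 FPKM in knockout libraries and 6.24, 6.72 and 7.40 FPKM in wild type libraries. Of 28 assembly factors, 16 were higher and 12 lower (median 0.035), and of 16 translation factors 10 were higher and 6 lower (median 0.048). Tsfm, the exchange factor of the mitochondrial elongation factor Tu, was at 10.1, 11.3 and 8.79 FPKM in knockout libraries and at 12.5, 12.1 and 11.97 FPKM in wild type libraries. Its groups did not overlap, and its log2 fold change was -0.26 ± 0.11 (SE, limma adjusted p = 0.592). Tufm, elongation factor Tu itself, averaged 44.0 FPKM in knockout and 40.5 FPKM in wild type (limma adjusted p = 0.723). Of 16 genes for transcription and upkeep of mitochondrial DNA, 13 were higher and 3 lower (median 0.030).

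The mRNAs that this ribosome translates had lower values in knockout libraries for 12 of 13 (median -0.10); limma called 0, and 0 had an unadjusted p under 0.05. Their sum was 46412, 38160 and 42460 FPKM in knockout libraries and 48302, 47597 and 45808 FPKM in wild type libraries; knockout library 1 lay between the wild type libraries. Its most variable member, mt-Atp6, was at 3630, 615 and 2366 FPKM in knockout libraries and at 3649, 3665 and 3570 FPKM in wild type libraries. The adjoining mt-Atp8 was at 3097, 2745 and 3092 FPKM in knockout libraries and at 3063, 3505 and 2959 FPKM in wild type libraries. The 2 genes are read from 1 transcript and overlap, and the way reads were divided between them is not stated in the sources used here. Of 20 other nuclear genes for mitochondrial proteins, 9 were higher and 11 lower (median -0.043); limma called 0, and 1, Timm23, had an unadjusted p under 0.05.

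Other large sets of subunit genes had medians further from 0 than the mitoribosome, in either direction. Of 84 cytosolic ribosomal protein genes, 83 had lower values in the knockout (median -0.26, or -0.15 without knockout library 3), with 0 called by limma and 9 at an unadjusted p under 0.05. Of 36 nuclear genes for complex I, 32 had higher values (median 0.11, or 0.056 without knockout library 3), with 0 called and 0 at an unadjusted p under 0.05. The mitoribosomal genes lay between them. Relative to each gene's mean over the 6 libraries, the median shift of large subunit genes was 0.010, -0.0010 and -0.070 in the knockout libraries and 0.074, 0.039 and -0.037 in the wild type libraries. That of small subunit genes was -0.014, 0.042 and -0.016 in the knockout libraries and 0.052, 0.019 and -0.083 in the wild type libraries. Values of some cell markers also differed between the groups. Of the proximal tubule markers, 10 of 10 had higher values in the knockout (median 0.65). Lower values were seen for 7 of 8 tubular injury markers (median -0.70) and 7 of 8 leukocyte markers (median -0.61), with 0 called by limma in each list. Without knockout library 3 the medians were 0.46, -0.099 and -0.43 in the order of these lists, so the value for the injury markers rested mostly on that library. At an unadjusted p under 0.05 there were 10, 1 and 3 of them, in the same order. Thick limb and distal markers were mixed, with 4 higher and 2 lower (median 0.27, or -0.43 without knockout library 3). Endothelial and stromal markers had 3 higher and 5 lower (median -0.046, or -0.12 without knockout library 3). In these lists limma also called 0. The leukocyte markers summed to 91.2, 108 and 88.3 FPKM in knockout libraries and to 118, 148 and 230 FPKM in wild type libraries. Their part in the values of the mitoribosomal genes was not tested.

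**Figure D4:**
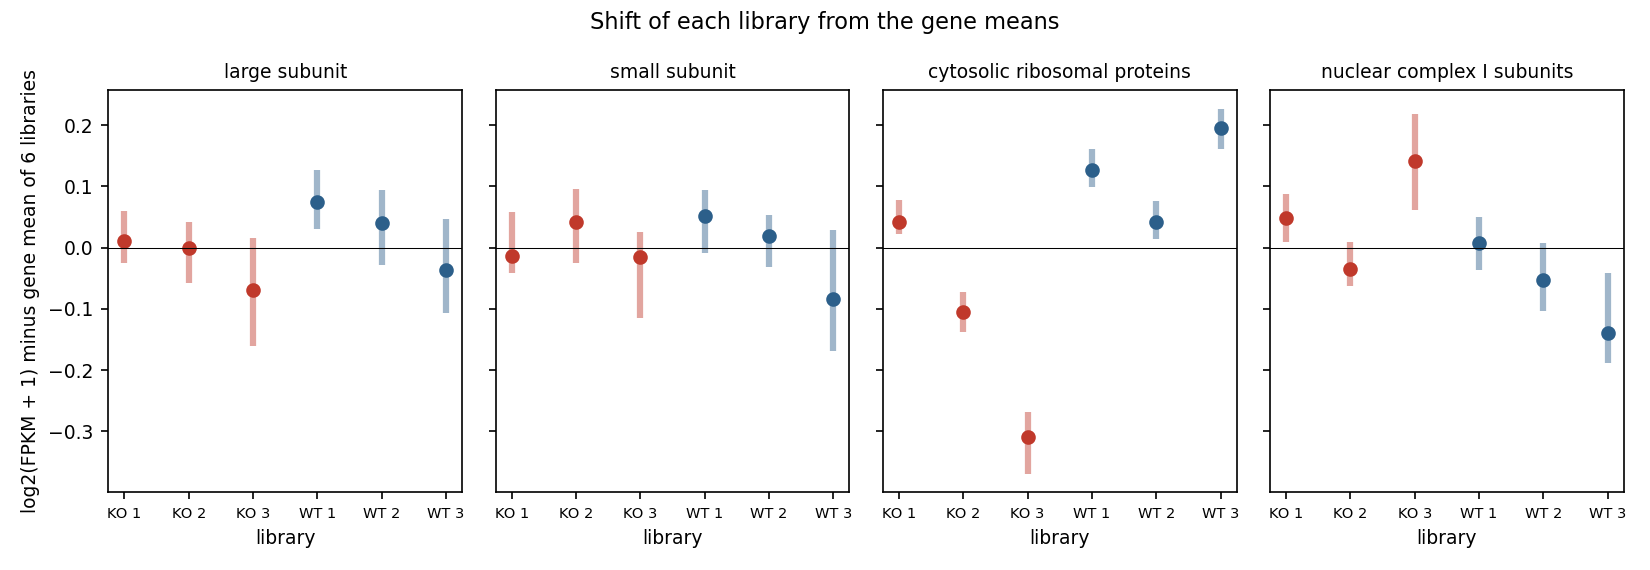
Shift of each library from the mean of the 6 libraries, in log2(FPKM + 1), as the median over the genes of a set (point) and the range from the 25th to the 75th percentile (bar); LIGHT knockout libraries are red and wild type libraries blue. The large and small subunit medians lie between -0.083 and 0.074 in all libraries, while the cytosolic ribosomal protein genes and the nuclear complex I genes are displaced most, in opposite directions, in knockout library 3 and wild type library 3.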

How the data were processed

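Per the labels' protocols, total RNA was taken from kidneys with TRIzol and prepared with a KAPA kit that keeps the strand. FPKM per gene were made by the authors and deposited as 1 table of all libraries, to which the per-sample files were identical. The submitters' processing notes name FastQC, HISAT2, StringTie and mm10 without versions; neither annotation nor strand setting is given in the sources used here. FPKM hold no read counts, so no interval for counting error could be given.

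A gene was kept if its mean over the 6 libraries reached 0.5 FPKM. On log2(FPKM + 1), limma 3.58.1 (R 4.3.3) fitted knockout against wild type with moderated variances that follow the mean. Two-sided p-values were adjusted over the 12836 genes by Benjamini-Hochberg, with a threshold of 0.05. The fit was tested on simulated data. Groups and replicate numbers came from the sample titles. Means ± SD are of FPKM. An exact permutation test of 3 against 3 cannot go below 0.1.

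Members and lists were chosen with earlier results of these data known, and no list was tested. Members named were up to 10 per direction by smallest p, the 5 highest and 5 lowest in level, the 3 highest and 3 lowest in SD, and Mrps18a, Mrps18b, Mrps18c, Mrps30, Mrps36, Mrpl12 and Mrpl44. In other lists up to 3 genes by smallest p could be named. Mrpl17, Mrpl34, the partners of overlapping or divergent genes, and Chchd1, Ict1, Tufm, mt-Atp8, Mrpl2 and the pairs of divergent starts lie outside this rule and were picked with their values in view. Positions and overlaps are from GENCODE M21. Of the 77 members, 35 overlap another gene or have at least 20% of their 31-base words in other genes. Alternatives were other pseudocounts, filters, scalings and variance models, a replicate block, leaving out each library, subunits by structure, and members without overlaps; leaving out chromosome 17 was added after the data were seen, as were the counts of groups without overlap when knockout library 3 is left out.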

Additional observations from a re-analysis of the deposited data

How the results depend on the processing

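No mitoribosomal gene was called under any of the alternatives run; the lowest limma adjusted p was 0.0696, for Mrpl14 with library weights. Over all genes, 15 calls became 52 with library weights, 0 with the replicate block, and 0 to 11 with 1 library left out; the cause was not tested. Deviations of same-numbered libraries correlated at 0.146, -0.133 and -0.019, and those of differently numbered libraries at -0.144 to 0.18. These few values cannot settle whether replicate numbers pair the samples. The block called 0 members, as did the fit without it. The difference in the ratio of large to small sums, knockout minus wild type, was -0.082. It was -0.19 for the 42 members without exonic overlap and with under 20% of shared 31-base words, where fewer members enter the sums. Mrps21, at 106 FPKM in knockout library 1, is among those 42, and the ratio was not computed without it. Of 595 values for the 35 named members, 565 kept their sign and 30, in 14 members, did not. With library weights these were Mrpl28 (-0.027), Mrps36 (-0.073), Mrps6 (0.092), Mrps17 (0.0050) and Mrps30 (0.051). With scaling that leaves out mitochondrially encoded genes they were Mrps16 (0.0025), Mrpl44 (0.0077), Mrpl12 (0.013), Mrpl42 (0.018) and Mrps30 (0.016), and with quantile normalization Mrpl44 (0.0016) and Mrps30 (0.020). With 1 library left out, the members that turned had log2 fold changes of -0.017 to 0.22 for Mrpl30, -0.29 to 0.11 for Mrps6, -0.030 to 0.19 for Mrps10, -0.14 to 0.024 for Mrps17, -0.042 to 0.12 for Mrpl48, -0.0012 to 0.041 for Mrpl13, -0.16 to 0.11 for Mrps18c, -0.093 to 0.028 for Mrps16, -0.022 to 0.0039 for Mrpl44, -0.083 to 0.066 for Mrpl12, -0.028 to 0.016 for Mrpl42 and -0.098 to 0.089 for Mrps30. Depth is unknown, so counting error could not be weighed.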
